A study of Mus musculus with 6 samples.

Results

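The endoplasmic reticulum unfolded protein response was followed through 10 genes of its ATF6 and XBP1 branches and of the chaperones of the organelle: Ern1, Atf6, Xbp1, Hspa5, Hsp90b1, Calr, Dnajb9, Dnajc3, Pdia4 and Herpud1. Every row of the value table whose single platform symbol was one of these names was taken, which gave 12 transcript clusters (a cluster pools the probes that lie in the same transcribed region) of 21789 with 1 gene symbol, and 10 genes of 19938. The testes came from mouse pups at postnatal day 15, an age at which the most advanced germ cells are spermatocytes in meiotic prophase. Total RNA from 3 control and 3 knockout samples was measured on Affymetrix mouse gene arrays, 6 in all and 1 per sample. The labels name the genotypes as control and knockout; they do not state the strain, the alleles of the controls or the cells in which the gene was deleted. Nor do they state whether replicates were separate animals, so a p-value here reflects the spread among the arrays, part of which may be technical.

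When unfolded proteins gather in the endoplasmic reticulum, the chaperone BiP leaves the membrane sensors IRE1, PERK and ATF6, which then signal to the nucleus. IRE1, encoded by Ern1, splices the Xbp1 messenger RNA so that it yields an active transcription factor, and ATF6 travels to the Golgi, where proteases release its own transcription factor part. Both factors raise chaperones, disulfide isomerases and the machinery that returns misfolded proteins to the cytosol for degradation. The testis makes much secreted and membrane protein, in Sertoli and Leydig cells as well as in germ cells that build an acrosome.

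Both factors read short elements in the promoters of their targets, and these elements are shown here because they are what several of the 10 genes share. The ER stress response element ERSE (letters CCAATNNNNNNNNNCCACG), ERSE-II (letters ATTGGNCCACG) and the UPRE (letters TGACGTGG) were searched on both strands of RefSeq promoter windows (GRCm38.p6) of 300 bases, from 250 bases before to 50 after each start. ERSE was found in 4 of the 9 genes with a window (Hspa5, Hsp90b1, Calr and Dnajc3), against 37 of 27025 genes in all (0.137%). The members were chosen from branches whose factors read such elements, so this contrast is a description and no test. Herpud1 held ERSE-II, which was found in 12 of 27025 genes (0.0444%), and none of the 9 held the UPRE, found in 193 genes (0.714%). Hsp90b1 held 2 copies of ERSE, and no match overlapped another. Of the stretches below, written 5′ to 3′ on the gene's strand, capitals mark ERSE in the first 4, or its reverse complement (Calr and the second copy in Hsp90b1), and ERSE-II in Herpud1. Hspa5 and Ern1 are given with all 250 bases before the start, Ern1 because its values differed most between the groups; its stretch holds none of these letters.
Hspa5: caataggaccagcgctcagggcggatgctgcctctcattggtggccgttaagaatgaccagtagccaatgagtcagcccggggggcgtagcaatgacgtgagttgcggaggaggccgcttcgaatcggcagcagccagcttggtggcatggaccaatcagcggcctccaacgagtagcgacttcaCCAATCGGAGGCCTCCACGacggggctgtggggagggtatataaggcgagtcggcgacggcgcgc
Hsp90b1: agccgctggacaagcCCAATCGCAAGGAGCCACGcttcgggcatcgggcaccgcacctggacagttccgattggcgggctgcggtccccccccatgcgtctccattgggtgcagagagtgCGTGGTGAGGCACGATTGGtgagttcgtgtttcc
Calr: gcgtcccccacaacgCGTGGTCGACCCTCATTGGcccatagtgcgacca
Dnajc3: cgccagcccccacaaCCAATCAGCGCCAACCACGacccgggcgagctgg
Herpud1: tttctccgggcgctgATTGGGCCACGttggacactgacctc
Ern1: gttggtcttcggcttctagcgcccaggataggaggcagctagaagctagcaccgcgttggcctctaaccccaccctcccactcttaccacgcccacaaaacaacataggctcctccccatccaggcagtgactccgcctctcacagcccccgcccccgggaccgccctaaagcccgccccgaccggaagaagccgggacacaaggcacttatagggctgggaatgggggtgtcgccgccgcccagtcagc
The stretch of Hspa5 lies at chr2:34771840-34772089, plus strand, with the element 65 to 47 bases before the start. That of Hsp90b1 lies at chr10:86705518-86705671, minus strand, that of Calr at chr8:84847060-84847108, minus strand, and that of Dnajc3 at chr14:118937812-118937860, plus strand. The stretch of Herpud1 lies at chr8:94386362-94386402, plus strand, and that of Ern1 at chr11:106487797-106488046, minus strand. Only exact matches were searched, so copies that depart from these letters, in Hspa5 or elsewhere, are neither counted nor marked. A match in these windows is a description of the letters and shows no binding.

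Transcripts of the response differed little between the genotypes. None of the 12 clusters passed an adjusted p of 0.05 (limma with Benjamini-Hochberg adjustment over all 21789 clusters, smallest adjusted p = 0.320), where 3 clusters passed in all (0.0138%). At an unadjusted p under 0.05, 1 of 10 genes was higher in the knockout (Ern1) and 0 were lower, against 10.6% of all clusters (4.1% higher and 6.45% lower), a share near that background. Their median difference, knockout minus control, was 0.05 on the log2 scale, against 0.00 over all genes. Of the 10 genes 7 lay above the control mean, 2 below and 1 at it (9 above and 1 below when arrays were centred on their medians). For the 9 genes other than Ern1, the 95% intervals of the difference ran from -0.15 to 0.20, which are folds of 0.901 to 1.15.

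**Figure D1:**
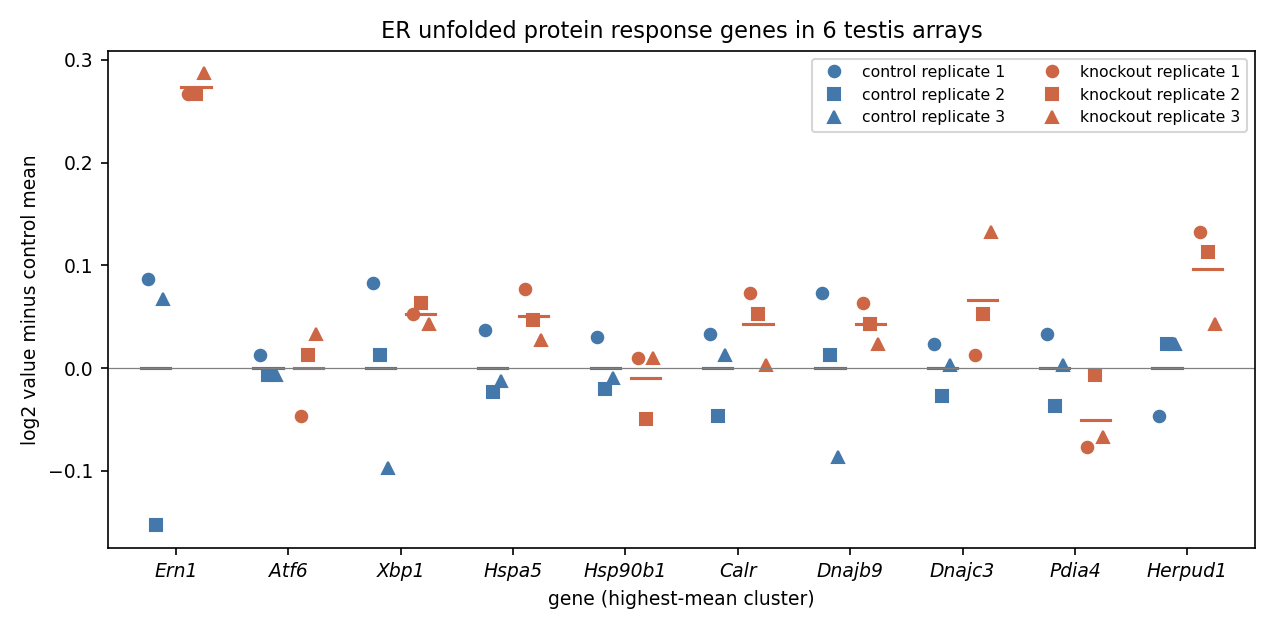
Log2 value minus the control mean (vertical axis) of each of the 10 genes (horizontal axis, the cluster with the highest mean) in 3 control arrays (blue) and 3 knockout arrays (orange), 1 point per array, with the group mean as a bar. The groups lie apart in Ern1 and Herpud1 and overlap in the other 8 genes.

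Of the sensors, Ern1, which encodes the kinase and ribonuclease IRE1, differed most between the groups and was higher in the knockout. Its cluster 10392183, of a gene on chromosome 11, read 10.18, 9.94 and 10.16 in the controls (replicates 1, 2 and 3, the order used throughout) and 10.36, 10.36 and 10.38 in the knockouts. All 3 knockout values lay above all 3 control values, and the controls spread more (SD 0.133, n = 3) than the knockouts (SD 0.0115, n = 3). The difference was 0.27 (SE 0.0682, 95% interval 0.11 to 0.43, 1.21-fold). It did not pass over all clusters (limma p = 0.00479, adjusted p = 0.320), and an exact two-sided permutation test over the arrays gave p = 0.1, the smallest that 3 arrays against 3 allow. It lay between 0.20 and 0.32 whichever array was left out, being smallest without control replicate 2, whose value was the lowest.

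Atf6, which encodes the membrane-bound sensor and transcription factor, had no difference in its means. Cluster 10359982 on chromosome 1 read 10.62, 10.60 and 10.60 in the controls and 10.56, 10.62 and 10.64 in the knockouts. The knockout values lay on both sides of the controls, and the difference was 0.00 (SE 0.0412, interval -0.10 to 0.10).

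Xbp1, the transcription factor downstream of IRE1, read 11.33, 11.26 and 11.15 in the controls and 11.30, 11.31 and 11.29 in the knockouts. The knockout arrays agreed to within 0.02, inside the control range of 0.18. The difference was 0.05 (SE 0.0538, interval -0.07 to 0.18, adjusted p = 0.773). The cluster value summarises the probes of the gene, so spliced and unspliced Xbp1 were not separated. Neither cleavage of ATF6 nor activity of IRE1 was measured.

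Chaperones of the lumen with ERSE in their windows differed little. Hspa5, which encodes BiP, the main chaperone of the lumen and the brake on the sensors, read 12.73, 12.67 and 12.68 in the controls and 12.77, 12.74 and 12.72 in the knockouts. One knockout value lay just below control replicate 1, and the difference was 0.05 (SE 0.0408, interval -0.05 to 0.15, 1.04-fold, adjusted p = 0.715). Calr, the calcium-binding lectin chaperone calreticulin, read 12.69, 12.61 and 12.67 in the controls and 12.73, 12.71 and 12.66 in the knockouts. The groups overlapped, with a difference of 0.04 (SE 0.0438, interval -0.06 to 0.15). Hsp90b1, the HSP90 of the lumen (GRP94), read 12.58, 12.53 and 12.54 against 12.56, 12.50 and 12.56. Its difference was -0.01 (SE 0.0413, interval -0.11 to 0.09), with a sign that turned (0.01) when arrays were centred on their medians.

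Co-chaperones of BiP overlapped between the groups too. Dnajb9 (ERdj4) read 11.31, 11.25 and 11.15 in the controls and 11.30, 11.28 and 11.26 in the knockouts, a difference of 0.04 (SE 0.0513, interval -0.08 to 0.16). Its knockout values fell inside the control range. Dnajc3 (P58IPK), which also inhibits PERK and related kinases, read 10.52, 10.47 and 10.50 in the controls and 10.51, 10.55 and 10.63 in the knockouts. Only knockout replicate 1 fell among the controls, and the difference was 0.07 (SE 0.0465, interval -0.04 to 0.18, adjusted p = 0.667). Its 2 clusters, 10417013 and 10417034, held identical values in all 6 arrays and were counted as 1 gene.

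The disulfide isomerase lay below the control mean and the degradation factor above it. Pdia4 (ERp72), which forms and reshuffles disulfide bonds, read 12.18, 12.11 and 12.15 in the controls and 12.07, 12.14 and 12.08 in the knockouts in cluster 10544525. The difference was -0.05 (SE 0.0430, interval -0.15 to 0.05), and the groups overlapped through knockout replicate 2. Its other cluster, 10544538, which lay below the array medians of 8.52 to 8.55 over named clusters, read 7.81, 7.78 and 7.94 against 7.83, 7.85 and 7.81 (difference -0.01, SE 0.0526). Herpud1, a membrane protein of the complex that extracts misfolded proteins for the proteasome, read 10.27, 10.34 and 10.34 in the controls and 10.45, 10.43 and 10.36 in the knockouts. All 3 knockout values lay above the controls, by as little as 0.02 for knockout replicate 3. The difference was 0.10 (SE 0.0455, interval -0.01 to 0.20, 1.07-fold, adjusted p = 0.507 in limma).

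**Figure D2:**
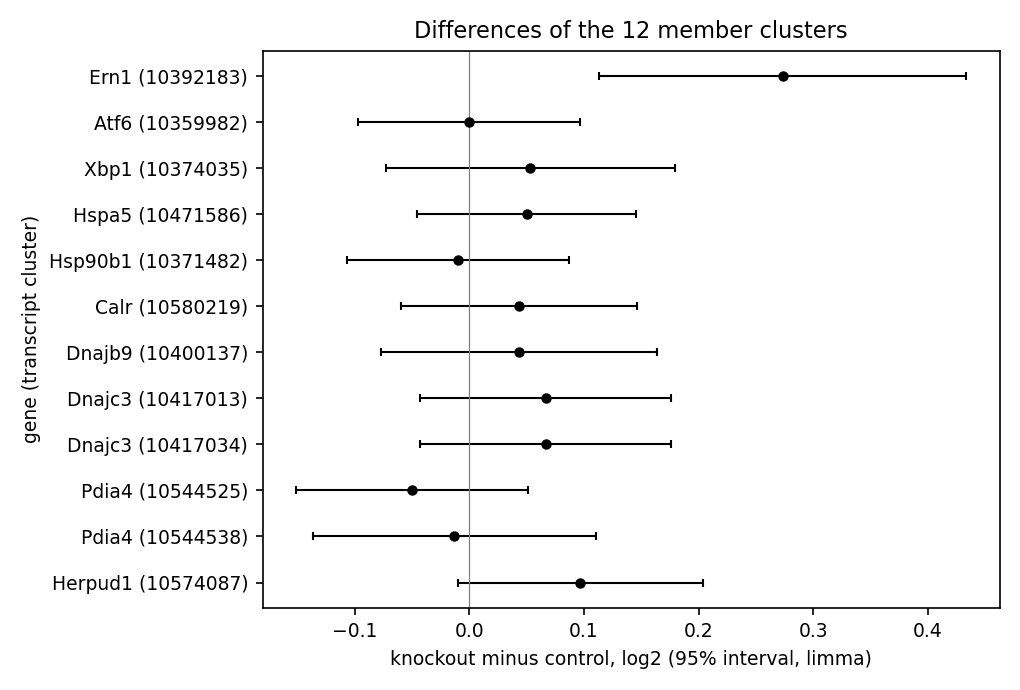
Difference between knockout and control means (horizontal axis, log2) of the 12 clusters of the 10 genes (vertical axis), with bars for the 95% interval from limma, n = 3 arrays per group. Among these clusters the bar of Ern1, from 0.11 to 0.43, does not reach 0.

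The groups did not overlap in 2 of 10 genes, Ern1 and Herpud1, both higher in the knockout, against 15.3% of all clusters (6.73% higher and 8.6% lower). That count was 6 without control replicate 1, where Xbp1, Hspa5, Dnajb9 and Dnajc3 joined and the share over all clusters was 25.7%. It was 4 without knockout replicate 3 (with Hspa5 and Calr, 25.4% over all clusters), and 4 with arrays centred on their medians (with Hspa5 and Dnajc3, 17.5% over all). Control replicate 1 had the highest control value in 9 of the 10 genes, Herpud1 being the exception, and control replicate 2 the lowest alone in 6. The mean over the 10 genes, relative to the control mean, was 0.04, -0.03 and -0.01 for the controls and 0.06, 0.06 and 0.05 for the knockouts. That mean includes Ern1, whose difference of 0.27 was the largest of the 10, so it does not show a shift shared by the other genes. Within the controls, the 9 genes other than Ern1 ranged over 0.02 to 0.18, and their group differences ran from -0.05 to 0.10.

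Other genes of the pathway were followed in 4 lists with 74 measured genes. Of these 45 lay above the control mean, 28 below and 1 at it, with a median of 0.01 to 0.02 in each list. At an unadjusted p under 0.05, 3 of 74 were higher and 0 lower (4.05%, against 10.6% of all clusters), and 0 passed over all clusters. The groups did not overlap in 5 of 74 (6.76%, against 15.3% of all clusters). The count of 3 came to 0 without control replicate 3, knockout replicate 1 or knockout replicate 2. The share over all clusters was then 10.9%, 7.22% and 9.11%.

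Among 19 measured genes of folding and disulfide formation, 2 were higher at an unadjusted p under 0.05 and 0 lower. That is 10.5%, near the 10.6% of all clusters, and the median was 0.02. Fkbp2, a prolyl isomerase of the lumen, read 9.72, 9.69 and 9.71 in the controls and 9.85, 9.89 and 9.76 in the knockouts. Its difference was 0.13 (SE 0.0471, adjusted p = 0.418), and the groups did not overlap. Txndc5, a thioredoxin-domain isomerase, read 10.55, 10.47 and 10.50 against 10.62, 10.61 and 10.59, also without overlap, a difference of 0.10 (SE 0.0412, adjusted p = 0.456). Calnexin (Canx), which with calreticulin holds glycoproteins until they fold, differed by 0.05, Pdia6 by -0.08, Creld2 by -0.01 and Ero1b by 0.00. These genes are outside the rule for named genes and were chosen after their values were seen because their windows hold ERSE.

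Of 18 measured genes of ER-associated degradation, 0 passed an unadjusted p of 0.05 in limma, and the median was 0.02 (range -0.11 to 0.09). The smallest p-values were those of Edem2, a mannosidase-like protein that marks glycoproteins for degradation (-0.11, adjusted p = 0.551), and Faf2, an adaptor that recruits the segregase VCP (-0.07, adjusted p = 0.612). Among 22 measured genes of translocation and vesicle export, again 0 passed an unadjusted p of 0.05 in limma (median 0.01, range -0.12 to 0.07). Arfgap3, which acts on the coat of Golgi vesicles (-0.12, adjusted p = 0.598), and Ssr3, a subunit of the translocon-associated complex (0.07, adjusted p = 0.615), had the smallest p-values. Of 15 other sensors and regulators, 1 was higher at an unadjusted p under 0.05 and 0 lower (6.67%, against 10.6% of all clusters). Creb3l1, a membrane-bound transcription factor cleaved like ATF6, read 9.24, 9.28 and 9.19 in the controls and 9.35, 9.45 and 9.32 in the knockouts. Its groups did not overlap (difference 0.14, SE 0.0508, adjusted p = 0.418).

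The ATF4 branch runs from PERK, whose gene Eif2ak3 differed by 0.08 (SE 0.0626, adjusted p = 0.715). Among its 12 measured genes 2 were higher at an unadjusted p under 0.05 and 0 lower (16.7%, against 10.6% of all clusters). The median was 0.06. Chac1, a glutathione-degrading enzyme, read 7.77, 7.75 and 7.77 against 8.19, 8.18 and 8.06, and Atf4 itself 9.18, 9.02 and 9.04 against 9.34, 9.35 and 9.22. Neither passed over all clusters (differences 0.38 and 0.22, adjusted p = 0.188 and 0.347).

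**Figure D3:**
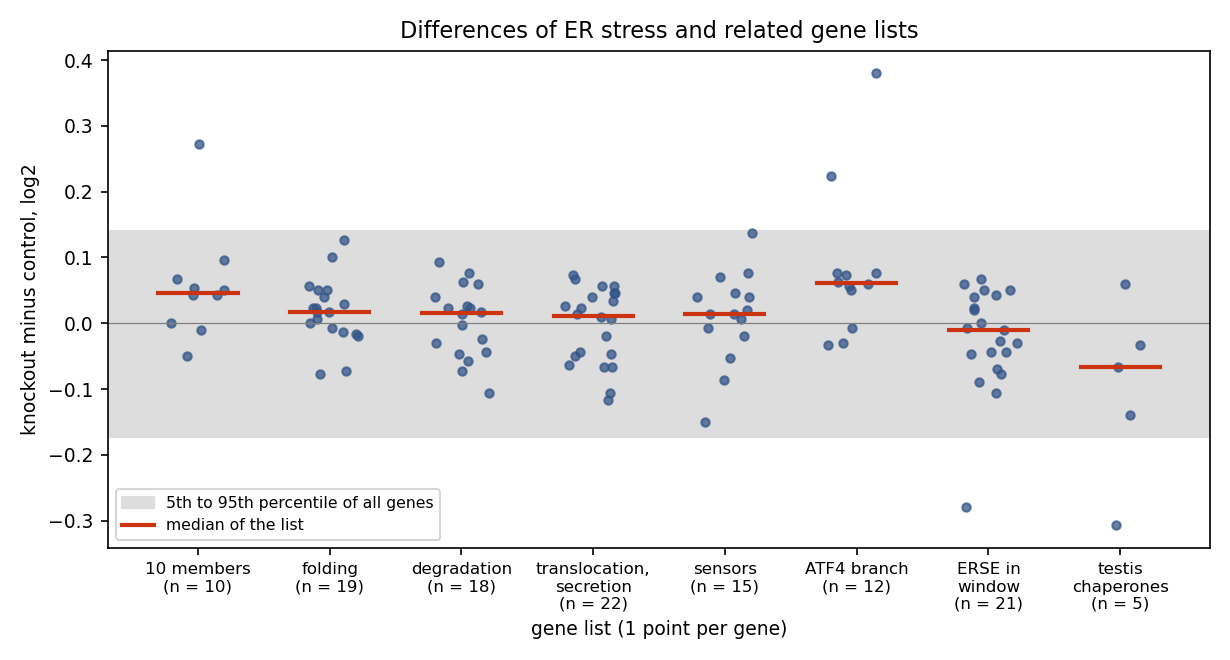
Knockout minus control difference (vertical axis, log2) of each gene in the 10 members and in 7 other lists (horizontal axis), with the list median as a red bar and the range from the 5th to the 95th percentile of all genes (-0.17 to 0.14) in grey. Ern1 is the only one of the 10 members above the grey band, and the 4 lists of other pathway genes lie within it.

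Genes with ERSE in the promoter window were set side by side, since the list was made from sequence alone. Of the 37 genes 21 were measured, among them Hspa5, Hsp90b1, Calr, Dnajc3, Canx, Pdia6, Ero1b, Creld2, Syvn1 and Derl3 of this organelle. Their median was -0.01, with 8 above the control mean, 12 below and 1 at it. At an unadjusted p under 0.05, 0 were higher and 1 lower (10.6% of all clusters). That gene, Tdrd9, a helicase of the piRNA pathway in germ cells (-0.28, SE 0.0704, adjusted p = 0.320), was chosen after its values were seen. The 9 measured genes with ERSE-II, Herpud1 among them, had a median of -0.02, and 0 of them passed an unadjusted p of 0.05 in limma.

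Across the 6 arrays, the genes of the 4 lists most like Hspa5 were Ssr3 (Pearson r = 0.960), Txndc5 (0.935) and Selenos (0.882), over 74 candidates. These values are a description of 6 arrays, which share the difference between the groups. Selenos, a selenoprotein of the degradation complex, read 9.65, 9.44 and 9.56 in the controls and 9.66, 9.66 and 9.61 in the knockouts, overlapping through control replicate 1.

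Of 5 chaperones listed for meiotic germ cells, 4 lay below the control mean. Clgn (calmegin), the testis relative of calnexin, read 10.76, 11.29 and 11.02 in the controls and 10.58, 10.66 and 10.91 in the knockouts. Its difference was -0.31 (SE 0.141, interval -0.64 to 0.02, adjusted p = 0.497), and the groups overlapped. Hspa2, a cytosolic and nuclear HSP70 of spermatocytes, differed by -0.14 (SE 0.0734, adjusted p = 0.548). The testis forms Calr3 and Pdilt differed by 0.06 and -0.07. Both lay below the array medians in all 6 arrays (7.57 to 7.79 and 6.07 to 6.19). In limma, 0 of the 5 genes of this list passed an unadjusted p of 0.05, against 10.6% of all clusters.

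Cell type markers also differed between the arrays. In bulk RNA, fewer cells of a type and less RNA per cell cannot be told apart. Of 15 pachytene spermatocyte markers, Clgn and Hspa2 among them, 14 lay below the control mean (median -0.31). Their mean log2 value was 9.18 to 9.73 in the controls and 8.98 to 9.22 in the knockouts. Among the controls it was lowest in replicate 1 and highest in replicate 2, the controls with the highest and the lowest mean over the members. Mean values of Sertoli and spermatogonia markers followed the members' order, with control replicate 1 highest and replicate 2 lowest. So did those of the 74 other pathway genes. A link between these orders was not tested. All 10 macrophage markers lay above the control mean (median 0.12, mean values 8.61 to 8.73 and 8.76 to 8.82), as did 12 of 13 Sertoli cell markers (median 0.07, 11.30 to 11.37 and 11.38 to 11.44). Of 12 spermatogonia markers 10 lay below the control mean and 2 above (median -0.11). Of 7 Leydig cell markers 6 lay above and 1 below (median 0.18). Peritubular and endothelial markers went both ways (median -0.01 in each). The part of these cell types in the differences of Ern1 and Herpud1 was not tested. Of the 6 markers of plasma cells, which carry a strongly active IRE1 and XBP1 pathway, 3 lay above and 3 below the control mean. Mean values were 8.11 to 8.22 and 8.13 to 8.21. Jchain, Mzb1, Prdm1 and Pou2af1 lay below the array medians in all 6 arrays (6.08 to 7.83). Derl3 (11.16 to 11.38), also in the degradation list, and Sdc1 (9.08 to 9.49) lay above them, so these values do not show that plasma cells were present. The mean of 5 epididymis markers was highest in control replicate 3 (6.43, against 5.95 to 6.15 in the other 5 arrays). There Adam7 (6.51) and Lcn5 (7.48) were at their highest, and Lcn8, Defb20 and Rnase10 were not. All of these markers lay below the array medians in all 6 arrays. RMA values have no true 0, and no marker was listed at 0. Some testis markers lay above the array medians in all 6 arrays. Among them were Inha (12.85 to 12.99) of Sertoli cells, Ldhc (10.22 to 11.51) of spermatocytes and Star (9.41 to 10.79) of Leydig cells. Others of the same lists did not. Pgk2, Ccna1, Adam3, Tdrd6 and Spag6 of the pachytene list lay below the medians in all 6 arrays (5.98 to 7.93). Hsd3b1 (8.33 to 8.74) of Leydig cells lay on both sides of them.

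**Figure D4:**
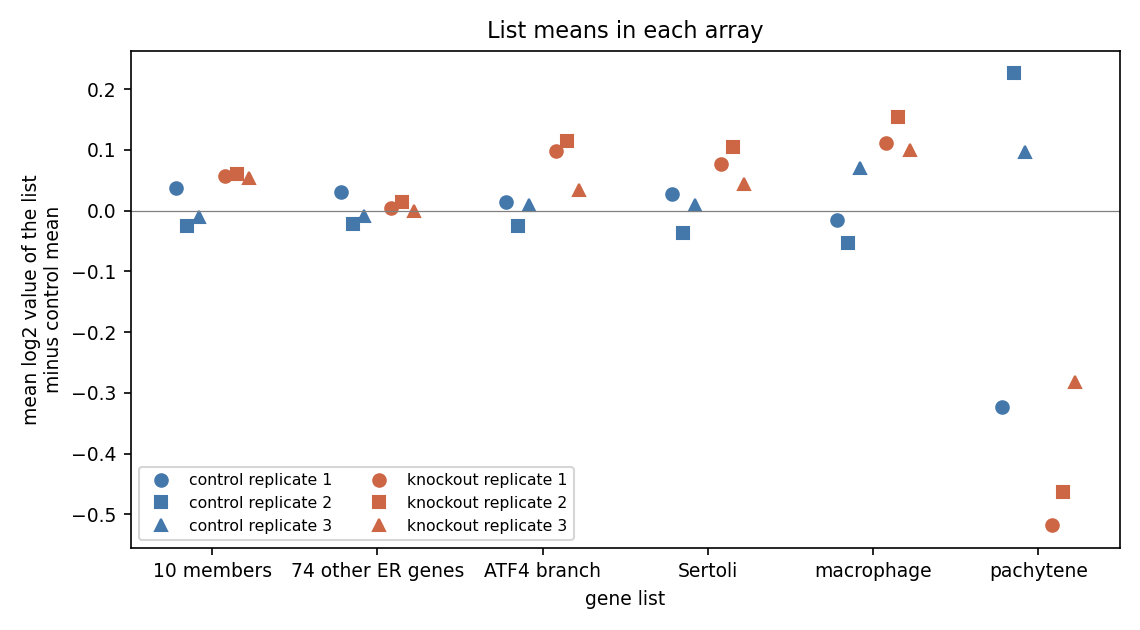
Mean log2 value of each gene list minus its control mean (vertical axis) for 6 lists (horizontal axis) in 3 control arrays (blue) and 3 knockout arrays (orange), 1 point per array. For the members, Ern1 with its difference of 0.27 included, the knockout arrays sit at 0.05 to 0.06, and the highest control at 0.04. Pachytene markers spread from -0.32 to 0.23 among the controls.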

How the data were processed

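The authors ran RMA in Affymetrix Expression Console, per the submitters' processing notes; RMA corrects the background, sets all arrays to 1 distribution by quantiles and summarises the probes of a cluster. The deposited values are on the log2 scale, 1 per cluster and array. Versions and genome build were not given in the sources used here. A shift common to every transcript is lost in this normalisation, and differences of dim clusters come out too small.

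Of 35556 rows, 21789 had 1 gene symbol on the platform's annotation and were tested, 1621 had several and 12146 were not named. Gene identifiers gave current symbols from RefSeq genes of GRCm38.p6 (21698 matched). Groups were compared by limma 3.58.1 under R 4.3.3 (lmFit and eBayes without covariates, 4 residual and 3.24 prior degrees of freedom), with Benjamini-Hochberg adjustment over all 21789 clusters and a threshold of 0.05. The procedure was tested on simulated data. The number of arrays limits the precision. A gene with several clusters was represented in lists by the one with the highest mean.

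The members and lists were chosen with earlier results of these data known. All members are named; from each other list, up to 3 genes with the smallest p under 0.05 or, where there was none, 2, and the 3 most like Hspa5. Alternatives were a replicate block, dim clusters left out, an intensity trend with robust prior, all rows tested, arrays centred on their medians, each array left out, and means over a gene's clusters. List members without a tested cluster were not analysed here, and Atf6 had no promoter window in the table used. The targeted gene is not reported here.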

Additional observations from a re-analysis of the deposited data

How the results depend on the processing

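The number of clusters past the threshold, 3, was 0 with a replicate block, 7 with an intensity trend and robust prior, 0 with all rows tested, and 0 to 52 when 1 array was left out (52 without control replicate 1). Members with an unadjusted p under 0.05, 1 in all, were 2 with dim clusters left out, with the trend and with arrays centred on their medians, Herpud1 being the second, and 1 to 2 when 1 array was left out. Members without overlap, 2, were 4 with centred arrays and 2 to 6 in leave-outs. Over all clusters the share without overlap was 15.3% in the main fit, 17.5% with centred arrays and 22.6% to 27% in leave-outs. Other pathway genes with an unadjusted p under 0.05, 3, were 1 with the replicate block, 5 with dim clusters left out, 6 with the trend and 0 to 3 in leave-outs. Over all clusters the share under that p moved too. It was 10.6% in the main fit, 10.5% with the block, 15.6% with dim clusters left out and 11.7% with the trend. With centred arrays it was 11.5%, and in leave-outs 7.22% to 10.9%. The causes were not tested. Hsp90b1 turned to 0.01 and cluster 10544538 of Pdia4 to 0.0067 with centred arrays; in leave-outs they ranged from -0.02 to 0.01 and from -0.045 to 0.035. The other members kept their direction or came to 0, except that Atf6, at 0, ranged from -0.02 to 0.02, and no member passed the threshold in any alternative. The adjusted p of Ern1 ranged from 0.141 to 0.648. Deviations of same-numbered arrays from their group means had correlations of 0.166, -0.054 and 0.170. With 3 arrays per group these values cannot decide whether the numbers pair the arrays, and no label says that they do. Without scanner files and detection values, the signal over background and hybridisation batches are not known.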
